A study of Homo sapiens with 8 samples.

Results

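Divergent shared promoters are open regions that serve 2 protein-coding genes whose starts face away from each other. They were examined in ATAC-seq peak lists of 4 HEK293T lines. Peaks of the 8 libraries that touched on chromosomes 1 to 22 were merged, and a merged region was kept if at least 2 libraries had a peak in it. A kept region was a divergent promoter if it contained, or lay within 500 bp of, the starts of both genes of a head-to-head pair. A pair was a minus-strand and a plus-strand coding gene whose GENCODE 44 gene starts were under 1 kb apart. Of 59800 regions, 1153 met this rule, which is 1.93% of all regions and 10.7% of the regions at coding gene starts. The reference class was made of 9165 single-gene promoters, which lay near the start of exactly 1 coding gene that belonged to no pair.

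HEK293T cells derive from human embryonic kidney and are widely used in the laboratory. Lentivirus was used to make the 4 stable lines, one for EZH2(WT) and the others for its mutants Y641F, A677G and H689A/F667I. Each line had 2 libraries. The WT line also received an introduced EZH2, blasticidin selection was applied to obtain monoclonal populations, and the methods describe no removal of the cells' own EZH2. Each line is thus 1 selected population, so a property of that population and an effect of its EZH2 cannot be told apart. EZH2 is the catalytic subunit of Polycomb repressive complex 2, which marks repressed chromatin on histone H3. In the study, gain of function (GOF) is the class of Y641F and A677G, and loss of function (LOF) that of H689A/F667I. Of 5 kidney lineage genes, LHX1, WT1 and SIX2 had a promoter peak in 8 libraries and PAX2 and PAX8 in 0. The blood genes PTPRC and CD3E and the liver gene ALB also had 0, and the muscle gene MYOD1 had a peak in 2 libraries.

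ATAC-seq marks chromatin that the Tn5 transposase can reach. At a divergent promoter the stretch between the starts is usually kept free of nucleosomes, and polymerases leave it in both directions. Such promoters tend to lie in CpG islands, usually lack a TATA box, and are well known from housekeeping, DNA repair and histone genes. Polycomb repression is best known at the CpG island promoters of developmental regulators. The assay read bulk cells, in which fewer cells with an open region and a weaker opening in every cell cannot be told apart.

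The annotation held 1354 head-to-head coding pairs made of 2596 genes. A divergent promoter region was found for 1259 of these pairs (93.0%), and 95 had none. The 1153 regions covered 2411 genes, or 12.6% of the 19111 coding genes, and 97 regions held more than 1 pair. The main pair of a region was separated by a spacer in 733 regions, with a median spacer of 127 bp. In the other 420 the 5' parts of the genes overlapped. Both starts lay inside the region in 1073 of 1153. In 14 regions the only pairs rested on a readthrough gene, and in 12 on a gene without a symbol.

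The thresholds of the rule divided similar regions. The pairs just inside 1 kb were PSMB1/TBP (995 bp), INKA2/DDX20 (992 bp) and APBA3/MRPL54 (990 bp), with merged widths of 1875, 1389 and 1763 bp. Just outside were TXNDC12/BTF3L4 (1008 bp), ACAP3/PUSL1 (1012 bp) and FBXW2/B3GALT9 (1013 bp), with widths of 2377, 1118 and 984 bp. Peaks were present in 8 libraries at each of these 6 except ACAP3/PUSL1, where there were 6. At the other threshold, 7 divergent promoters had a peak in exactly 2 libraries, and 6 regions at pairs were left out because 1 library had a peak.

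The spacers below were read from GRCh38/hg38 on the plus strand and run between the starts, overlapping no annotated exon. Capitals mark the motif cores searched. NRF1, an activator of many housekeeping and mitochondrial genes, was searched as GCATGCGC. The ETS family of factors was searched by its core CCGGAAG. The box bound by the trimeric factor NF-Y was searched as CCAAT. The core of YY1, a zinc finger factor, was AAGATGGCG. The box of the SP and KLF zinc finger factors was GGGCGG. The TATA box, which places the start of many regulated genes, was searched as TATAAA. The element of the CREB and ATF factors was TGACGTCA. The E-box of helix-loop-helix factors was CACGTG. The core of the zinc finger factor ZNF143 was ACTACAATT. Both strands were searched, and overlapping matches were kept. The first set shows pairs that had a peak in all 8 libraries.
C2CD3/PPME1, chr11:74171211-74171266: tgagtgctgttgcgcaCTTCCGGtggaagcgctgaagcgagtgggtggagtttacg
CAPS2/GLIPR1L2, chr12:75390929-75391088: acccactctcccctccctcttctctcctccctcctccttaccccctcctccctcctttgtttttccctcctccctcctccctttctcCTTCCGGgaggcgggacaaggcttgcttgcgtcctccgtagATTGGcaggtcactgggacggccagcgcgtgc
SERINC1/PKIB, chr6:122471808-122471916: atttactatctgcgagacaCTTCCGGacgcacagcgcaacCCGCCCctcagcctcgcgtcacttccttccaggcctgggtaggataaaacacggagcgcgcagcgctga
U2AF1L4/PSENEN, chr19:35745446-35745599: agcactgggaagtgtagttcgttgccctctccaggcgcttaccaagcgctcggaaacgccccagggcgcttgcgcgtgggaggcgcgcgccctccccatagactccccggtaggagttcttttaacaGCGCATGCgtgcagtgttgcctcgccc
COL4A4/COL4A3, chr2:227164454-227164623: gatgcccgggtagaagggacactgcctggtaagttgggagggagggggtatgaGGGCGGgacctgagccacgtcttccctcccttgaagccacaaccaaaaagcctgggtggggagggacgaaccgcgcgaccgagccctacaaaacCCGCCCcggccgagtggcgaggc
H2BC11/H2AC11, chr6:27132796-27133042: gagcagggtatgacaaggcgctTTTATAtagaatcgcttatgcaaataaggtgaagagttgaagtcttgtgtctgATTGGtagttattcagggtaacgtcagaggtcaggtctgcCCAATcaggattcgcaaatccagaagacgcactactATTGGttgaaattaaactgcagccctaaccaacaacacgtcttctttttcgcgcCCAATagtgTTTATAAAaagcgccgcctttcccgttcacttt
The second set shows pairs that lost their peak in at least 1 mutant line and whose values by library are given further on.
CENPB/CDC25B, chr20:3786741-3786771: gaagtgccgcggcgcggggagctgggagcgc
IFIH1/GCA, chr2:162318685-162318839: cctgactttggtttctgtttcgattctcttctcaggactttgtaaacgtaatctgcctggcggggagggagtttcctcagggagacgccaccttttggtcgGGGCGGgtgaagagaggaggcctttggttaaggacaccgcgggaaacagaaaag
OSTM1/NR2E1, chr6:108165855-108166021: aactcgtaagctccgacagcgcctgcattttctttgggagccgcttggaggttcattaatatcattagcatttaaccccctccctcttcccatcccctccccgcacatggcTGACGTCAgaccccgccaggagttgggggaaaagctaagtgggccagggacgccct
RGS19/OPRL1, chr20:64079989-64080081: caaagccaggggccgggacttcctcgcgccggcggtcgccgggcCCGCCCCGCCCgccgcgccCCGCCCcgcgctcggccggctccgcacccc
POLR2L/TSPAN4, chr11:842530-842811: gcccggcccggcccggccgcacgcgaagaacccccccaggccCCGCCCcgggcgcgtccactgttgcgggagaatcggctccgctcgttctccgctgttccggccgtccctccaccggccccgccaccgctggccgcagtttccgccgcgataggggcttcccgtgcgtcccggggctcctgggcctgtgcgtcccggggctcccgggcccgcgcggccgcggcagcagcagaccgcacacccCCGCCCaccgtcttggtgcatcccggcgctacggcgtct
The spacers of C2CD3/PPME1, CAPS2/GLIPR1L2 and SERINC1/PKIB, which were open throughout, each held an ETS core. So did the spacer of TMEM203/NDOR1, which is not shown and was lost in Y641F. The spacers of FAM227B/DTWD1 and DIS3/PIBF1, also not shown, were open throughout and held none of the cores. In the histone spacer of H2BC11/H2AC11 there were 4 CCAAT cores and 3 TATA cores, of which the last pair share letters. RGS19/OPRL1 and POLR2L/TSPAN4 had 18 and 42 CpG dinucleotides in spacers of 93 and 282 bp, with a GC content of 87.1% and 78.0%. These spacers were picked as examples and say nothing of the frequency of a motif, which is given next.

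Windows of 300 bp were centred on the midpoint between the starts of a pair, or on the start of a single gene. The windows thus lay differently relative to the transcribed parts, and the effect of this on the shares below was not tested. Median GC content was 65.3% in divergent promoters, 67.7% in single-gene promoters and 63.0% around all coding gene starts. The ratio of observed to expected CpG had a median of 0.861, 0.848 and 0.741 in the same order. The ETS core was found in 23.9% of divergent promoters, 14.8% of single-gene promoters and 12.2% of all starts. For the NRF1 core the shares were 7.37%, 4.23% and 3.53%. The TATA core was found in 3.30%, 4.83% and 9.25%. By contrast, the SP and KLF core was found in 69.4% and 70.6% of the first 2 classes and 54.6% of all starts, and CCAAT in 34.9%, 32.5% and 33.5%.

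The remaining cores were rare in all classes. In divergent promoters, single-gene promoters and all starts, YY1 was found in 3.90%, 3.31% and 2.37%, and the E-box in 9.11%, 8.57% and 7.70%. The CREB and ATF core was found in 3.04%, 2.89% and 2.198%, and ZNF143 in 0.781%, 0.480% and 0.361%. All 9 cores were more frequent in pairs with a spacer than in pairs with overlapping 5' parts. The ETS core had shares of 28.2% and 16.4% in these, CCAAT 41.5% and 23.3%, and NRF1 9.28% and 4.05%. These are shares of letters in a window, given without a test, and a missing core says only that its letters are not there.

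Divergent promoters with an ETS core (276) had a median fold enrichment of 4.70, averaged over the libraries with a peak, and the 877 without one had 4.15. With CCAAT (402) the median was 4.57, and without it (751) 4.15. For the SP and KLF core the medians were 4.25 with and 4.32 without. The share with a peak in 8 libraries was 96.7% with an ETS core and 89.4% without one. It was 95.8% and 88.7% for CCAAT.

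The first question was how often divergent promoters were open in each line. A peak was present in all 8 libraries at 1051 of 1153 divergent promoters (91.2%). The share was 86.6% of the 1907 single-gene promoters with a lncRNA gene head-to-head, 74.97% of the 7258 without one, and 30.3% of all regions. In the WT libraries peaks were found at 99.7% and 99.5% of divergent promoters. The shares were 92.0% and 96.4% in Y641F, 97.1% and 98.4% in A677G, and 99.05% in each library of H689A/F667I. All 4 GOF libraries were below the other 4. Of the 50 divergent promoters open in 7 libraries, 43 had no peak in Y641F replicate 1 alone.

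**Figure D1:**
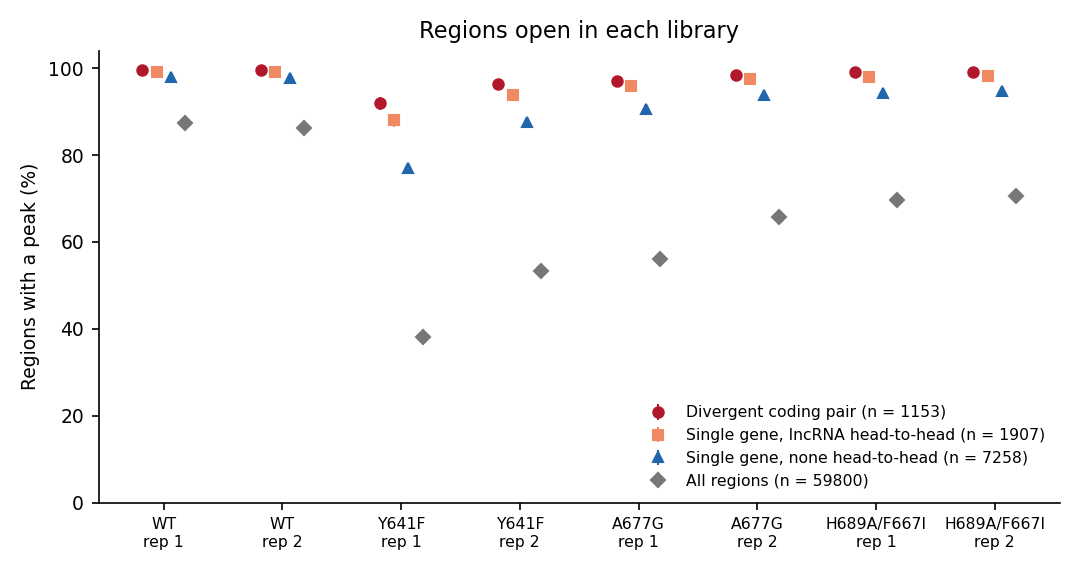
Share of regions with a peak (%) in each library for divergent coding pairs, single-gene promoters with and without a head-to-head lncRNA gene, and all regions. Bars are 95% Wilson intervals, most of them smaller than the symbols. The divergent pairs stay between 92.0% and 99.7%, while all regions range from 38.1% to 87.4%.

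The mean share of open divergent promoters was 96.0% ± 2.78 (SD, n = 4) in GOF libraries and 99.3% ± 0.309 (SD, n = 4) in WT and LOF libraries. The difference of -3.32 points had p = 0.0286 by exact permutation (two-sided), the smallest p that 4 against 4 libraries allow, and 0.0408 after adjustment over 10 tests. It moved with the number of peaks called in a library. Read depth is not known, so library yield and a wider loss of open regions in a line cannot be told apart by peak number. Peak number was 25423 and 35380 in Y641F, 36744 and 44754 in A677G, 46317 and 47164 in H689A/F667I, and 62739 and 60420 in WT. With the strongest 25423 peaks of every library, the difference fell to -0.41 points (exact permutation p = 0.40), and the shares ran from 91.3% to 93.1%. It grew to -20.06 points with only peaks at a −log10 q of at least 5, and to -18.1 points where peaks had to cover 50% of a region (exact permutation p = 0.0286 each). Each mutant against WT, 2 libraries against 2, cannot go below p = 0.333 in an exact permutation test, and each gave that value.

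Single-gene promoters were open less often in each library, from 79.4% in Y641F replicate 1 to 98.2% in WT replicate 1. The gap to divergent promoters was 1.49 points in each WT library, 12.7 and 7.55 in Y641F, 5.43 and 3.89 in A677G, and the LOF line had 4.09 and 3.68. It was above 0 in 8 of 8 libraries (mean 5.03 points ± 3.66, SD, n = 8, exact sign-flip permutation p = 0.0078, adjusted 0.0195). As the rule favours wide regions, part of this gap may be set by it. The p measures only the spread between libraries that share the same regions. The gap was 7.38 ± 3.82 in GOF and 2.69 ± 1.39 in the other libraries (SD, n = 4 each, exact permutation p = 0.0571, adjusted 0.0714). The groups overlapped in this measure. With equal peak numbers the order of the groups turned, by -1.98 points (exact permutation p = 0.0857), and the groups differed by 0.21 points among peaks whose −log10 q reached 5 (exact permutation p = 0.89). Single-gene promoters with a lncRNA gene head-to-head were closer to divergent promoters in each library. They were open at 99.1% in each WT library and at 88.0% and 93.7% in Y641F. A677G had 95.8% and 97.4%, and the LOF line 97.85% and 98.1%. This smaller gap was not tested.

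The second question was how wide and how strong the peaks were. The strongest peak of a library stood for that library in each region. The fold enrichment (column 7 of the peak lists) is the pileup over local background, and the −log10 p (column 8) also grows with yield. Median peak width in divergent promoters was 1273 and 1252 bp in WT, 797 and 965 bp in Y641F, 977 and 1018 bp in A677G, and the LOF line had 1033 and 1085 bp. Single-gene promoters had 1141 and 1116 bp in WT and 711 and 836 bp in Y641F. Single-gene promoters with a lncRNA gene head-to-head had 1276 and 1252 bp in WT and 793 and 937 bp in Y641F. The divergent promoters were thus wider than single-gene promoters as a whole in each library, but close in width to those with a lncRNA gene head-to-head. Their peaks were narrowest in the library with the fewest peaks.

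Across the 8 libraries the median log2 width was 0.18 ± 0.03 (SD, n = 8) higher in divergent than in single-gene promoters. The rule itself favours wide regions, since 1 region had to reach both starts. The median log2 fold enrichment was 0.08 ± 0.01 higher and the median log2 of −log10 p was 0.28 ± 0.05 higher (SD, n = 8 each). Each of the 3 differences was above 0 in 8 of 8 libraries, with p = 0.0078 in an exact two-sided sign-flip permutation test and 0.0195 after adjustment. This p is the smallest that 8 libraries allow, and it measures the spread between libraries that share the same regions. Against the single-gene promoters with a lncRNA gene head-to-head, a comparison added after seeing the data, log2 width was 0.02 higher and above 0 in 5 of 8 libraries (exact sign-flip permutation p = 0.0938). The differences in log2 fold and log2 of −log10 p to these were 0.06 and 0.16, above 0 in 8 of 8 libraries (exact sign-flip permutation p = 0.0078 each). The difference in fold was small, and with only peaks at a −log10 q of at least 5 it was 0.01 (exact permutation p = 0.0625).

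**Figure D2:**
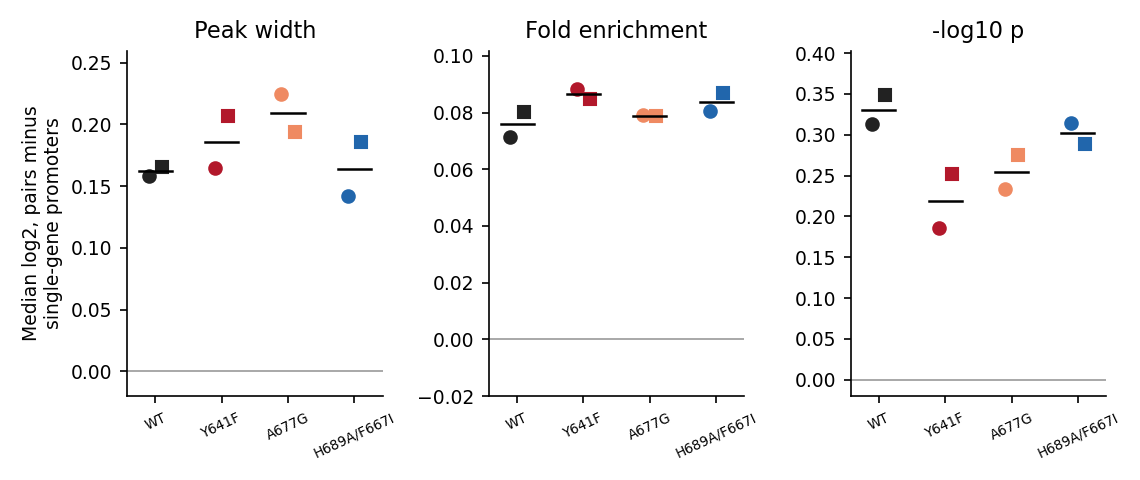
Difference of medians on the log2 scale between divergent pairs and single-gene promoters, for peak width, fold enrichment and −log10 p. Circles are replicate 1, squares replicate 2, and lines the mean of a line's libraries. All points lie above 0, and the GOF libraries lie lowest for −log10 p.

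Median fold enrichment in divergent promoters stayed between 4.20 in Y641F replicate 1 and 4.39 in WT replicate 2, against 3.95 to 4.15 in single-gene promoters. Median −log10 p was 13.6 and 13.4 in WT, 8.15 and 9.56 in Y641F, 9.52 and 10.5 in A677G, and the LOF line had 10.7 and 10.96. The difference to single-gene promoters in log2 of −log10 p was 0.24 ± 0.04 in GOF and 0.32 ± 0.02 in the other libraries (SD, n = 4 each). Every GOF library was below every other library in it (exact permutation p = 0.0286, adjusted 0.0408). For width this contrast had p = 0.0857 and for fold p = 0.60 (exact permutation, adjusted 0.0952 and 0.60). The contrast in −log10 p, of -0.08, moved with peak number as well. With equal peak numbers it was -0.01 (exact permutation p = 0.29), while those of width and fold were 0.04 and 0.04, each with the GOF libraries above all others (exact permutation p = 0.0286).

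The 1051 divergent promoters open in all 8 libraries were examined one by one for values that did not overlap between GOF and the other libraries. Fold enrichment was lower in all 4 GOF libraries than in all other 4 at 65 (6.18%), against 8.27% of all regions open in 8 and 7.01% of single-gene promoters. It was higher at 25 (2.38%), against 1.56% of all regions. The −log10 p was lower at 212 (20.2%), against 15.4% of all regions and 17.2% of single-gene promoters, and higher at 5 (0.476%), against 0.193% of all regions. Width was lower at 142 (13.5%), against 13.5% of all regions, and higher at 0, against 0.0497%. The shares of divergent promoters were close to the background for width and within 5 points of it for the other measures.

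The position of the peaks was read from the midpoint of a pair or from the start of a single gene. At the midpoint of the pair a peak was present in 96.4% of open divergent promoters in WT replicate 1 and in 87.3% in Y641F replicate 1. In WT replicate 1 the share was 63.6% at 500 bp to the side of the minus-strand gene and 64.6% at 500 bp to the side of the plus-strand gene. In single-gene promoters of this library it was 35.3% at 500 bp upstream of the start and 69.0% at 500 bp into the gene. In Y641F replicate 1 the corresponding values were 34.9% and 36.9% for divergent promoters, and 19.5% and 39.4% for single-gene promoters. At 500 bp the sides of divergent promoters differed by under 3 points in each of the 8 libraries, while single-gene promoters were higher into the gene in each. The sides of a pair followed the strand and each runs into a gene, so near-even sides are set by this layout. Both starts also had to be near the region, and no test was made.

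**Figure D3:**
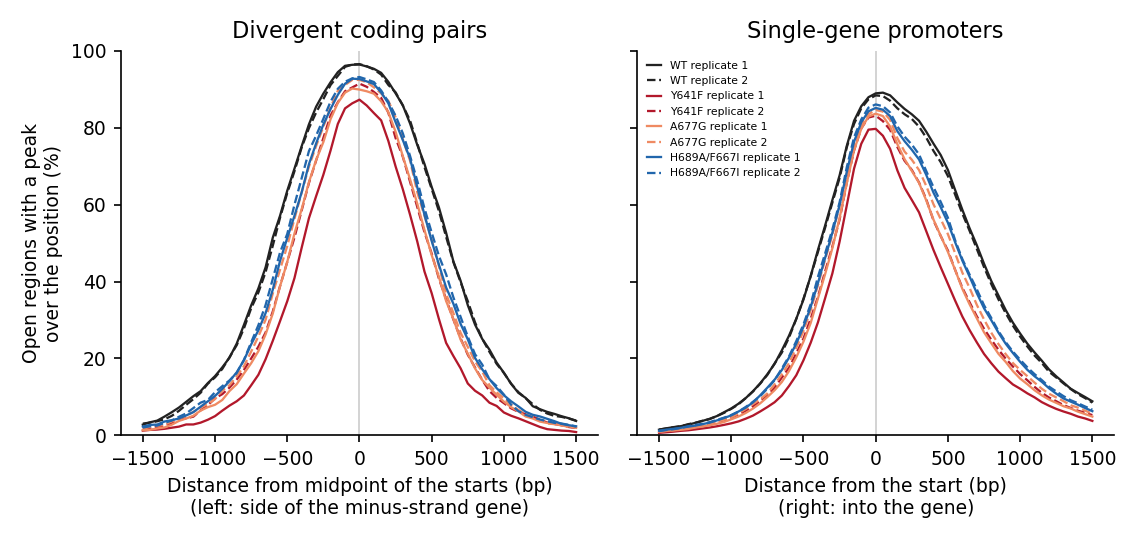
Share of open regions (%) with a peak over each position, against the distance in bp from the midpoint of the starts (left) or from the start, with the gene to the right (right). Lines are the 8 libraries, solid for replicate 1 and dashed for replicate 2. The curves of divergent pairs are nearly even on both sides, and those of single genes extend further into the gene. Pairs run into a gene on both sides, so their evenness is set by the layout.

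A single peak covered both starts at 89.0% and 88.8% of open divergent promoters in WT. The share was 75.02% and 80.7% in Y641F, 80.4% and 83.9% in A677G, and the LOF line had 84.0% and 84.2%. At most of the others the peak covered 1 start, from 9.83% of regions in WT replicate 1 to 21.2% in Y641F replicate 1. Separate peaks over the starts were found at no more than 2 regions in any library. The share with both starts covered was lowest in the library with the fewest and narrowest peaks.

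The distance between the starts was only weakly related to peak shape. Median merged width was 1445 bp for overlapping 5' parts, 1443 bp at a spacing of under 100 bp, 1461 bp from there to under 300 bp and 1553 bp beyond. Spearman's rho across the 733 regions with a spacer was 0.14 between spacing and merged width, and -0.11 between spacing and mean fold. These are descriptions across regions of the same libraries. Within divergent promoters, mean fold and mean peak width had a rho of -0.17 over 1153 regions.

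The third question was which divergent promoters lost their peak in a mutant line. A region was lost if both WT libraries and neither library of the line had a peak, and gained in the reverse case. Absence of a called peak is not absence of signal. Of 1145 divergent promoters open in both WT libraries, Y641F lost 32 (2.79%, 95% Wilson interval 1.99 to 3.92), A677G lost 10 (0.873%, 0.475 to 1.60) and H689A/F667I lost 6 (0.524%, 0.240 to 1.14). Over all regions the shares were 35.2%, 20.8% and 14.1%. Of 8880 single-gene promoters, the same lines lost 8.12%, 2.55% and 1.68%. With a head-to-head lncRNA gene the shares were 4.26%, 1.17% and 0.533%, and without one 9.15%, 2.91% and 1.98%. Intervals cover counting error only. The counts depended on single libraries, as they were 85 in Y641F without its replicate 2, 27 in A677G without its replicate 2 and 10 in H689A/F667I without its replicate 1. With only peaks at a −log10 q of at least 5 they were 241, 131 and 85 of 1010 (23.9%, 13.0% and 8.42%). At that setting all regions lost 44.8%, 29.1% and 20.6%, and single-gene promoters 31.6%, 16.9% and 11.9%.

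The WT strength of the peaks moved with these losses. Of the 32 divergent promoters lost in Y641F, 30 were in the lowest of 10 strata of WT −log10 p times width, and so were all 10 and 6 lost in the other lines. Single-gene promoters weighted to the same strata lost 3.31%, 1.00% and 0.654%, so that the difference to divergent promoters was -0.52, -0.13 and -0.13 points in place of -5.32, -1.67 and -1.15. Within the lowest stratum Y641F lost 26.1% of divergent and 30.0% of single-gene promoters. With equal peak numbers Y641F lost 13 of 1048 (1.24%) divergent promoters and A677G and H689A/F667I lost 8 each (0.763%). At that setting the 3 lines lost 11.5%, 6.85% and 6.11% of all regions, and 2.35%, 1.09% and 1.55% of single-gene promoters. Of the lost divergent promoters, 4 in Y641F and 0 in the other lines were the same as with all peaks.

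**Figure D4:**
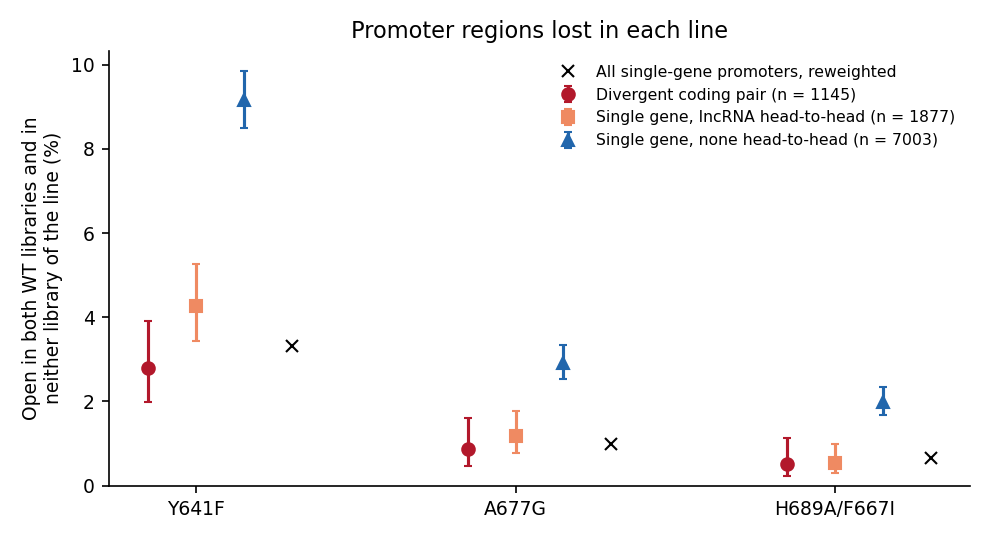
Share of promoter regions (%) open in the WT libraries and without a peak in a line, with 95% Wilson intervals. Crosses give all single-gene promoters weighted to the divergent pairs' strata of WT −log10 p times width. The divergent pairs lie lowest in each line, and the crosses lie at 3.31%, 1.00% and 0.654%.

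The GC content of windows at the 32 divergent promoters lost in Y641F had a median of 73.2%, against 65.0% at those open in all 8 libraries. An ETS core was found in 1 of the 32 (3.13%) and an NRF1 core in 0, against 25.4% and 7.80% of those open throughout. Single-gene promoters lost in Y641F had a median GC content of 70.3%, an ETS core in 7.77% and an NRF1 core in 1.80%. These values were not tested.

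Of 1145 divergent promoters open in both WT libraries, 7 were lost in both Y641F and A677G, and 3 in all 3 mutant lines. The same overlap was not counted over all regions, so nothing is read from these counts. POLR2L/TSPAN4 (chr11:842400-842955), a small subunit shared by the RNA polymerases and a tetraspanin, was lost in all 3 mutant lines. There WT had a −log10 p of 3.42 and 4.45, and no other library had a peak. These values were far below the median of 13.6 and 13.4 that divergent promoters had in WT.

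LMF1/SOX8 (chr16:980889-981794), a lipase maturation factor and a developmental transcription factor, had a −log10 p of 4.27 and 4.85 in WT and 4.81 and 4.06 in H689A/F667I, and no peak in the 4 GOF libraries. It was among the divergent promoters closed in all 4 GOF and open in all other libraries, 2 of 1132 (0.177%, 0.0485 to 0.642) against 3.84% of all regions and 0.498% of single-gene promoters. The reverse pattern was found at 0.

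The Y641F losses with the strongest WT peaks were open in A677G and H689A/F667I in most cases. At AP3D1/DOT1L (chr19:2163586-2164108), an adaptor subunit of vesicle transport and a histone methyltransferase, −log10 p was 11.6 and 7.71 in WT, 6.16 and 5.08 in A677G, and the LOF line had 6.52 and 5.65. At RSPH14/RAB36 (chr22:23145013-23146172), a radial spoke protein of cilia and a small GTPase, it was 6.96 and 11.1 in WT, 4.30 and 6.14 in A677G, and the LOF line had 5.82 and 6.29. At CENPB/CDC25B (chr20:3786661-3787007), a centromere protein and a phosphatase that activates mitotic kinases, it was 9.94 and 9.09 in WT, 6.16 in A677G replicate 2 and 4.77 and 7.18 in H689A/F667I. The peak was 282 and 338 bp wide in WT, and the merged region of 347 bp was among the 3 narrowest of the class. At IFIH1/GCA (chr2:162318489-162319174), a cytoplasmic sensor of double-stranded RNA and a calcium-binding protein, it was 9.33 and 7.26 in WT, 3.96 and 6.07 in A677G and 5.70 in H689A/F667I replicate 2. These were the 4 that were also lost with equal peak numbers.

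The remaining strong Y641F losses were HLA-DMA/BRD2, CCDC78/HAGHL, RXRB/SLC39A7, GALNS/TRAPPC2L, TMEM203/NDOR1 and RECQL4/LRRC14. All 6 had a peak in both libraries of A677G and of H689A/F667I. At HLA-DMA/BRD2, which joins an antigen-loading chaperone and a bromodomain protein, −log10 p was 5.995 and 11.5 in WT, 6.53 and 7.91 in A677G, and the LOF line had 10.2 and 7.80. At RECQL4/LRRC14, with a DNA helicase, it was 6.68 and 6.07 in WT, 5.37 and 3.53 in A677G, and the LOF line had 5.89 and 5.04. Fold enrichment at RECQL4/LRRC14 was 2.24 and 2.18 in WT, among the 3 lowest of the class on average.

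JSRP1/OAZ1 (chr19:2269295-2270566), with an inhibitor of polyamine synthesis, went against the order of peak number. Its −log10 p was 4.81 and 5.22 in WT and 4.49 and 3.50 in Y641F, and A677G and H689A/F667I had no peak. OSTM1/NR2E1 (chr6:108165082-108166159), with an orphan receptor of neural stem cells, had 4.72 and 4.05 in WT and 3.85 and 5.02 in A677G, and no peak in Y641F or H689A/F667I. RGS19/OPRL1 (chr20:64079492-64080330), a regulator of G-protein signalling and a nociceptin receptor, had 4.37 and 5.55 in WT and 3.17 in A677G replicate 2. The last 2 made up the H689A/F667I losses with JSRP1/OAZ1 and the 3 pairs lost in every line. Further A677G losses were EIF4E3/GPR27, GON4L/SYT11, ZNF836/PPP2R1A and LGI3/SFTPC, whose WT values ranged from 4.37 to 7.85.

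**Figure D5:**
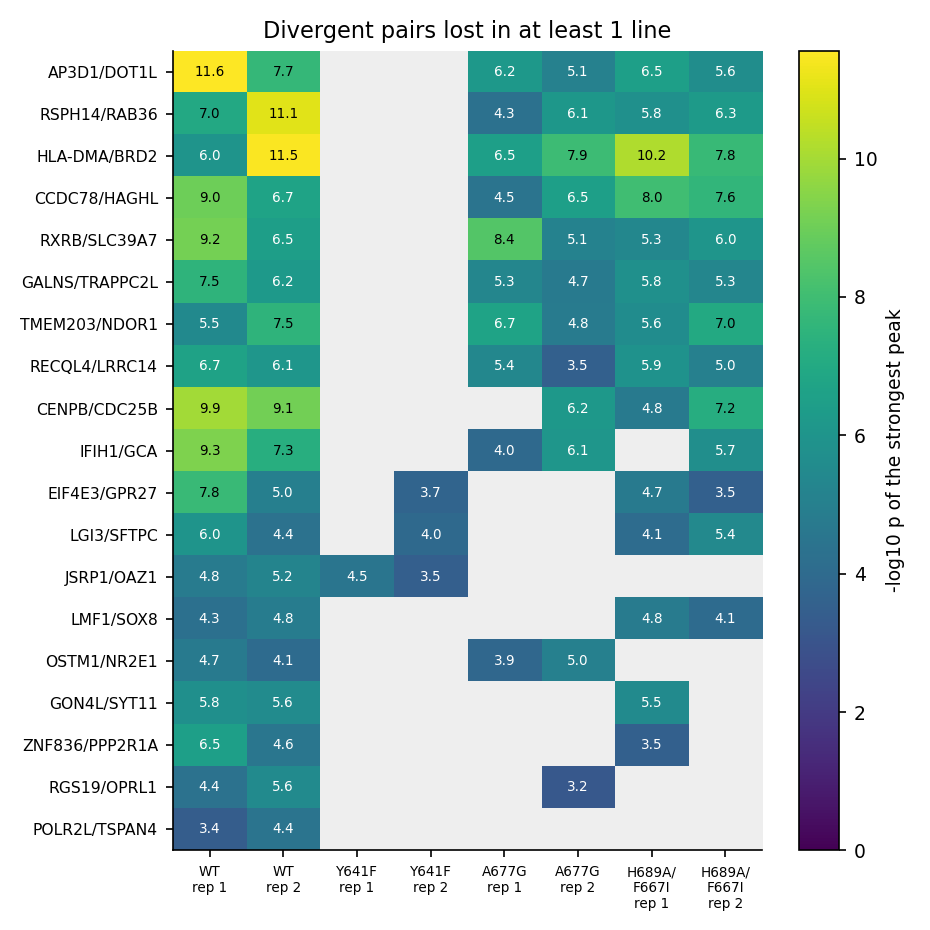
The −log10 p of the strongest peak in each library (colour and number) at the divergent pairs named as lost in at least 1 line. Grey means no peak. In Y641F 3 of these pairs had a peak in at least 1 library, and JSRP1/OAZ1 had one in both. Not every lost pair is drawn.

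With all peaks gains were nearly absent, as only 2 divergent promoters had a peak in neither WT library. In Y641F and A677G 0 were gained, against 8.70% and 12.7% of all regions without a WT peak. H689A/F667I gained both, against 22.8% of all regions. As each had a peak in these 2 libraries alone, they met the rule of at least 2 libraries only through the line in which they count as gained, and nothing is read from this count. At TPRX1/CRX (chr19:47819483-47820107), a pair of homeobox genes of which CRX acts in photoreceptors, −log10 p was 3.595 and 4.43 in H689A/F667I. At SEPTIN12/SMIM22 (chr16:4787894-4788397), with a septin of sperm, it was 3.61 and 4.06. All other libraries lacked a peak at both. With equal peak numbers Y641F, A677G and H689A/F667I gained 9, 6 and 1 divergent promoters, where they lost 13, 8 and 8. The single-gene promoters gained were 202, 190 and 131, and those lost 161, 75 and 106. Over all regions 1503, 1238 and 1134 were gained and 2369, 1406 and 1254 lost. These counts were not tested.

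Gene groups were formed by symbol. Of the DNA repair genes, 34 of 76 listed genes (44.7%) lay in 34 divergent promoters, against 12.6% of all coding genes. Of these promoters 31 (91.2%) were open in all 8 libraries, the same share as in the whole class (91.2%), and RECQL4/LRRC14 was the 1 of 33 lost in Y641F (3.03%, against 2.79% of the class). Of the 33 single-gene promoters of this group, 32 (97.0%) were open in all 8 libraries and 0 were lost in Y641F. The divergent promoters of the group had a median mean fold of 4.70. At NPAT/ATM, a histone gene activator and the kinase that signals double-strand breaks, −log10 p was 24.6 and 24.9 in WT, 17.7 and 20.5 in Y641F, 22.1 and 26.9 in A677G, and the LOF line had 25.1 and 25.05. The Y641F libraries had the lowest of these values, and A677G spanned the WT range. Fold enrichment at this pair was 4.85 and 5.10 in WT and 5.50 to 5.92 in the mutant libraries, all above both WT values. At TMEM167A/XRCC4, with a factor of end joining, fold enrichment ran from 6.92 in WT replicate 2 to 8.67 in A677G replicate 1, among the 3 highest of the class on average.

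Replication-dependent histone genes had the broadest divergent promoters. All 10 regions were open in 8 libraries, against 91.2% of the class. None of the 10 was lost in any line, where the class lost 2.79%, 0.873% and 0.524% in Y641F, A677G and H689A/F667I. Their median merged width was 2305 bp, against 1461 bp over all divergent promoters. Their median mean fold of 3.37 was below the 4.27 of the class. H2BC11/H2AC11 had peaks of 3036 and 3129 bp in WT, 1433 and 1917 bp in Y641F, 2106 and 1845 bp in A677G, and the LOF line had 2195 and 2135 bp. Its −log10 p was 12.7 and 12.9 in WT and between 10.1 and 12.2 in the 6 mutant libraries, all below both WT values. Its fold went the other way, with 2.93 and 3.09 in WT and 3.28 to 3.82 in the 6 mutant libraries, all above both WT values. Copies of histone genes resemble each other, so reads may be shared among them. The widest region of the class, TMEM276/KIFC2 with 3846 bp, was joined from separate peaks, the strongest of which ran from 266 to 1581 bp by library.

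Genes of the mitochondrial ribosome and respiratory chain had 58 of 184 listed members (31.5%) in 55 divergent promoters. Of these, 49 (89.1%) were open in all 8 libraries, near the 91.2% of the class and below the 93.3% of the group's single-gene promoters. In each line 0 of 55 were lost, where the class lost 2.79%, 0.873% and 0.524% in Y641F, A677G and H689A/F667I. The single-gene promoters of this group lost 1 of 88 in each line. Of 35 RNA polymerase subunit genes, 13 (37.1%) lay in 13 regions, of which 11 were open throughout, and POLR2L/TSPAN4 was lost in each line (7.69%). Mitochondrial import genes had 6 of 25 in 6 regions, all open throughout. The cytosolic ribosome had 15 of 84 in 15 regions, with 14 open throughout and 0 lost. The proteasome had 12 of 49 in 11 regions, of which 8 were open throughout and 1 was lost in Y641F (9.09%). Genes with cell cycle symbols had 24 of 135 in 24 regions, with 22 open throughout, and CENPB/CDC25B lost in Y641F (4.17%). Single-gene promoters were also more often open throughout than pairs for RNA polymerase (87.5%), proteasome (86.7%) and developmental factor genes (63.5%). They were less often so for cytosolic ribosome (89.3%), cell cycle (87.6%), histone (86.7%), zinc finger (79.5%) and collagen genes (60.0%), and equally for mitochondrial import (100%). Those of RNA polymerase and proteasome genes lost 0 in Y641F. These shares, and losses of 0 or 1 region in groups this small, were not tested and are not read as traits of a group.

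Zinc finger genes had 45 of 504 (8.93%) in 37 divergent promoters, against 12.6% of all coding genes, and 34 of these promoters were open throughout. The difference in share was not tested. Developmental factor genes had 7 of 162 (4.32%) in 7 regions. Of these, 3 were open throughout and 2 of the 5 open in both WT libraries were lost in Y641F (40.0%, against 2.79% of the class). So few regions were not tested. The single-gene promoters of developmental factors lost 20 of 92 in Y641F (21.7%), against 8.12% of all single-gene promoters. The median mean fold of the 7 regions was 2.94 and median −log10 p 5.42, against 4.27 and 10.7 over the class. Collagens had 3 of 42 in 2 regions, both open throughout. The symbols select by name, so FOXRED1, an oxidoreductase-like protein, was counted with the developmental factors.

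Of 20 gene pairs listed as head-to-head from textbooks, 14 met the pair rule in this annotation, and each of the 14 had a divergent promoter region. The other 6 did not meet the rule. Of the 14, all but SURF1/SURF2, which code for proteins of cytochrome oxidase assembly and ribosome biogenesis, had a peak in 8 libraries. At SURF1/SURF2 fold enrichment was 2.43 and 2.87 in WT, 2.19 in Y641F replicate 2, 2.47 and 2.13 in A677G, and the LOF line had 2.21 and 2.33, and Y641F replicate 1 had no peak. At PPAT/PAICS, enzymes of purine synthesis, the WT peaks were 2398 and 2396 bp wide and those of the mutant libraries ran from 1476 to 1609 bp. All 6 mutant libraries were narrower than both WT libraries, while fold was 3.24 and 3.38 in WT and 3.03 to 3.68 in the others.

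Of the genes listed as targets common to the GOF mutants, 108 were in the annotation and 2 lay in divergent promoters. This list was chosen partly on these libraries and is not independent evidence. COL4A4/COL4A3, chains of basement membrane collagen, had a fold of 3.92 and 5.10 in WT, 3.85 and 4.01 in Y641F, 4.27 and 5.08 in A677G, and the LOF line had 4.19 and 4.87. SERINC1/PKIB, a membrane protein and an inhibitor of protein kinase A, had 6.21 and 5.09 in WT, 5.85 and 5.54 in Y641F, 5.95 and 5.94 in A677G, and the LOF line had 6.18 and 5.33. Both were open in all 8 libraries and their groups overlapped in fold. At COL4A4/COL4A3 −log10 p was 8.09 and 12.3 in WT and 5.76 and 6.82 in Y641F. It was 6.99 and 9.91 in A677G and 7.28 and 9.13 in the LOF line. The groups overlapped in −log10 p at both pairs. The study tested differential occupancy, a measure unlike the values of a called peak, so these values do not test its calls.

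The strongest divergent promoters had a high fold in every line. At FAM227B/DTWD1 (chr15:49620693-49621292), with an enzyme of tRNA modification, fold was 9.09 and 8.82 in WT, 8.61 and 7.58 in Y641F, 9.08 and 8.35 in A677G, and the LOF line had 7.67 and 8.77. At CAPS2/GLIPR1L2 (chr12:75390780-75391653) it was 8.84 and 6.70, 7.42 and 8.44, 8.61 and 9.34, and 8.31 and 8.39 in the same order of lines. The groups overlapped at both. C2CD3/PPME1 (chr11:74170582-74171646), a centriole protein and a phosphatase methylesterase, had the highest −log10 p on average, with 39.2 and 36.5 in WT, 17.1 and 29.4 in Y641F, 30.9 and 30.6 in A677G, and the LOF line had 36.3 and 31.5. Here all 4 GOF libraries were below the other 4. At DIS3/PIBF1, with a ribonuclease of the RNA exosome, fold was 5.23 and 5.197 in WT and 6.49 and 6.32 in Y641F, while the peaks were 1169 and 1229 bp wide in WT and 730 and 823 bp in Y641F.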

How the data were processed

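ATAC-seq was performed in 8 libraries of 4 HEK293T lines, 2 per line, and the titles gave the line and the replicate number of each. The study describes the libraries of a line as independent biological replicates. According to its methods and processing notes, the authors trimmed reads with Trim Galore 0.6.5, aligned them to GRCh38/hg38 with BWA 0.7.17, removed duplicates and called broad peaks in each library with MACS2 2.2.7.1. The deposited lists give a fold enrichment (a ratio over local background), a −log10 p, a −log10 q and a score that was not used. No deposited peak had a −log10 q of 1 or less. Transposase shift, mitochondrial filtering and read depth are not given in the sources used here. Peak number is therefore the available measure of yield, though fewer open regions in a line would lower it as well. The study's count test was replaced by counts of peaks.

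Peaks on chromosomes 1 to 22 were merged at an overlap of 1 bp, and 0 peaks ended beyond a chromosome of the reference. GENCODE 44 gave gene starts as the 5' end of the gene record. The members, lists, tests and alternatives were chosen with earlier results of these data known. Named regions were textbook pairs, the 3 most extreme in width, fold and −log10 p, lost regions (up to 10 per line, by WT −log10 p), gained regions, study targets and those nearest to the thresholds. Some named regions and a marker gene are not reported here, while counts include them. Values per library were compared by exact permutation tests over libraries (two-sided) and by sign-flip tests, with Benjamini-Hochberg adjustment over 10 tests. A p of this kind measures the spread between these libraries. Under the filters on peaks and when leaving out a library, regions and members were kept as merged from all peaks. Python 3.11.15, pandas 2.3.3, SciPy 1.17.1 and pysam 0.24.0 were used, and the steps were tested on simulated data.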

Additional observations from a re-analysis of the deposited data

Results flagged for a closer look

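Within GOF or within the other libraries, 1 of 4 values lay far from the other 3 by Dixon's test in 5 of 132 groups of values, where chance gives about 1 in 20. At NPAT/ATM fold enrichment was 5.92 in A677G replicate 2 and 5.50 to 5.53 in the other GOF libraries. At TMEM276/KIFC2 it was 2.42 in Y641F replicate 1 and 2.66 to 2.67 in the other GOF libraries. At RSPH14/RAB36 it was 4.18 in WT replicate 2 and 3.08 to 3.22 in the other WT and H689A/F667I libraries. For −log10 p, U2AF1L4/PSENEN had 8.83 in Y641F replicate 2 and 7.29 to 7.52 in the other GOF libraries. C2CD3/PPME1 had 17.1 in Y641F replicate 1 and 29.4 to 30.9 in the other GOF libraries.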

How the results depend on the processing

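The higher width, −log10 p and share of open regions of divergent promoters rest on 8 libraries of 1 cell line with unknown depth, and a missing peak is no measure of absent signal. Width and −log10 p kept their direction and their side of the threshold under the alternatives run, including each library left out, with log2 differences of 0.14 to 0.23 and 0.14 to 0.31, except that width missed it against single-gene promoters with a head-to-head lncRNA gene (0.0229, an alternative added after seeing the data). Fold did so except with a −log10 q of at least 5 (0.0068, p above the threshold). The lower share of open divergent promoters in GOF libraries missed the threshold with equal peak numbers (-0.41 points), for pairs without overlap (-2.56 points) and without either WT or either H689A/F667I library, and it ran from -4.13 to -1.99 points with 1 library left out. It passed at -20.06 points with a −log10 q of at least 5 and -18.1 with a cover of 50%. With the replicate block, in which libraries were permuted within their number, the difference was -3.32 points (exact permutation p = 0.0556, the smallest p of 36 arrangements). The numbers are not known to pair libraries, since differences between replicates 1 and 2 correlated at -0.037 to 0.117 between lines. For the differences of width, fold and −log10 p over all 8 libraries the block allows no test, and replicate numbers 1 and 2 gave 0.17 and 0.19, 0.08 and 0.08, and 0.26 and 0.29.

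The gap in open regions to single-gene promoters, GOF minus other libraries, was a measure added after seeing the data. It passed the threshold for pairs without overlap (5.46 points), regions containing both starts (5.58), canonical transcript starts (4.98) and a peak cover of 50% (5.61) and without A677G replicate 2 (5.86), and ran from 2.94 to 5.86 points with 1 library left out. It was 0.21 with a −log10 q of at least 5 and reversed with equal peak numbers (-1.98). The difference in log2 of −log10 p to single-gene promoters, GOF minus others, missed the threshold with a −log10 q of at least 5 (-0.0543), equal peak numbers (-0.0135), canonical transcript starts (-0.0821), the replicate block (-0.0797, exact permutation p = 0.0556) and without either WT library, either H689A/F667I library or Y641F replicate 1, with a range of -0.0926 to -0.0626 with 1 library left out. The same contrast passed it with equal peak numbers for width (0.0402) and fold (0.0378), and for fold it reversed with regions containing both starts (-0.00059), canonical starts (-0.00066) and single-gene promoters with a head-to-head lncRNA gene (-0.0073).

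Counts of lost divergent promoters depended most on the peaks counted. With a −log10 q of at least 5 they were 241, 131 and 85 of 1010 in Y641F, A677G and H689A/F667I. With a cover of 50% they were 166, 86 and 40 of 1107. Equal peak numbers gave 13 of 1048 in Y641F. Pairs without overlap gave 18 and 4 in Y641F and A677G, regions containing both starts 20 and 6, and canonical starts 6 and 3 in A677G and H689A/F667I. With 1 library left out the counts ran from 33 to 85, 10 to 27 and 6 to 10. The highest came without Y641F replicate 2 (85), without A677G replicate 2 (27) and without H689A/F667I replicate 1 (10).

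The difference in percent lost to single-gene promoters kept its sign under all alternatives. In Y641F, A677G and H689A/F667I it was -7.72, -3.95 and -3.51 points with a −log10 q of at least 5, and -9.97, -4.60 and -3.18 with a cover of 50%. With equal peak numbers it was -1.11 and -0.33 in Y641F and A677G, and in Y641F -6.36 against single-gene promoters without a head-to-head lncRNA gene, an alternative added after seeing the data. Weighted to strata of WT −log10 p it was -0.78, -0.19 and -0.17, of width -2.51, -0.60 and -0.41, and of their product -0.52, -0.13 and -0.13. With 1 library left out it ran from -11.0 to -5.95, -3.84 to -1.90 and -2.75 to -1.35.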
